A study of Mus musculus with 4 samples.

Results

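The genes described here are the homeobox genes of the Hox clusters and of the Lhx, Pou, sine oculis, Pbx, Meis, Irx, Dlx, Msx, Nkx, Pitx, Tgif, Cphx and Obox families. Lhx1, Pou3f1 and Pou5f1 were left out because they belong to a set of genes of the spermatogonial state. Members were chosen by gene symbol alone, after each probe's RefSeq accession had been matched to a symbol, and 106 of the 16354 named genes on the array fitted. They comprised 105 protein-coding genes and Dlx6os2, a non-coding RNA of the Dlx6 locus whose symbol matches. A further 12 protein-coding genes of these families had no matched probe, among them Hoxd8, Hoxc11, Dlx6 and Nkx3-2.

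Homeobox genes encode transcription factors that bind DNA through a homeodomain. Hox genes lie in 4 clusters (Hoxa to Hoxd) and pattern the body axis, and the TALE proteins PBX and MEIS bind DNA together with HOX proteins. The sine oculis, LIM, POU and NK-like classes (the last with Dlx, Msx and Nkx) act mainly in organ formation, with SIX4 and LHX9 known from the early gonad. NANOS2, which binds RNA in male germ cells, keeps spermatogonial stem cells undifferentiated and is known to act on its target mRNAs with the CCR4-NOT deadenylase.

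The study asked which mRNAs are found with NANOS2. RNA was measured on single-colour (Cy3) whole-genome mouse arrays, 2 of FLAG immunoprecipitates (FLAG IP) and 2 of Input, the starting material. All 4 samples came from male testis at postnatal day 7 of mice with a transgene in which a Nanos2 enhancer drives 3xFLAG-Nanos2 with its 3′ untranslated region, so both groups carry the transgene. The labels do not say how many animals stand behind a sample, so p-values measure only the spread between these samples, and no FLAG immunoprecipitate from untagged testis was analysed here. A description field names a fetal gonad, whereas the titles and the age field give postnatal day 7, which is used throughout.

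A level is the log2 processed signal less the 75th percentile of its array, so 0 is a bright spot and the change is FLAG IP minus Input. The 4 arrays shared 1 slide and 1 scan, 66.3% to 68.4% of their 41174 probes were well above background, and 0 spots were saturated. Nanos2 itself had log2 signals of −1.94 and −2.44 in the FLAG IP arrays, against −3.87 and −3.66 in the Input arrays (change 1.58 ± 0.22, SE, adjusted p = 0.011), and the probe cannot tell the transgene from the endogenous gene. Across the 21594 features tested, 3403 were higher and 4586 lower in FLAG IP at an adjusted p under 0.05 (limma), and the median change was −0.15. Scaling on the labelling spike-ins instead moved that median by −0.97 and gave 627 higher and 14136 lower features. Directions below are therefore relative to the bulk of the RNA on each array.

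Of the 106 homeobox genes, 63 were well above background on all 4 arrays and 26 on 0 arrays. In FLAG IP 68 genes were well above background on both arrays, and in Input 66 were. Hoxa2, Hoxa10 and Hoxc13 passed on both FLAG IP arrays and on 0 Input arrays, and Hoxb8 and Hoxd3 passed on both Input arrays and on 0 FLAG IP arrays. Hoxb4 passed on both FLAG IP arrays and 1 Input array, and Hoxd11 on both Input arrays and 1 FLAG IP array. Testing needed both arrays of at least 1 group and took in 71 genes. The remaining 35 included all 5 Obox genes, 9 Hox genes and 6 Pou genes.

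Among the 63 genes detected on all 4 arrays, 25 were higher in FLAG IP (39.7%) and 8 were lower (12.7%), beside 15.5% higher and 20% lower of all 19910 features detected on all 4 arrays. Over all 71 tested genes, 29 were higher (40.8%) and 10 lower (14.1%), beside 15.8% and 21.2% of all tested features. Together 39 were called, where 37% of all tested features were. Of these 71, 8 passed the filter through 1 group alone, so the counts over the 63 are the ones to read. The median change of the 63 was 0.41, beside −0.13 over all features on all 4 arrays. These shares describe the group, and a test of the group as a whole was not made. The shares of all tested features, 15.8% higher and 21.2% lower, also apply to the family, class and gene list counts below. No family or class was tested as a whole. With spike-in scaling 15 of the 71 were higher and 25 lower. Their median was −0.54, a shift shared by all features, against 0.43 with the 75th percentile. Leaving out Input 1 left 16 higher and 2 lower, and leaving out Input 2 left 15 and 1. Leaving out FLAG IP 1 gave 25 and 5. A block on the replicate number, which the data do not show to pair the samples, gave 23 and 4. Both FLAG IP arrays lay above both Input arrays for 42 of the 71 genes (59.2%, beside 29.8% of all tested features) and below them for 18 (25.4%, beside 44.7%).

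**Figure D1:**
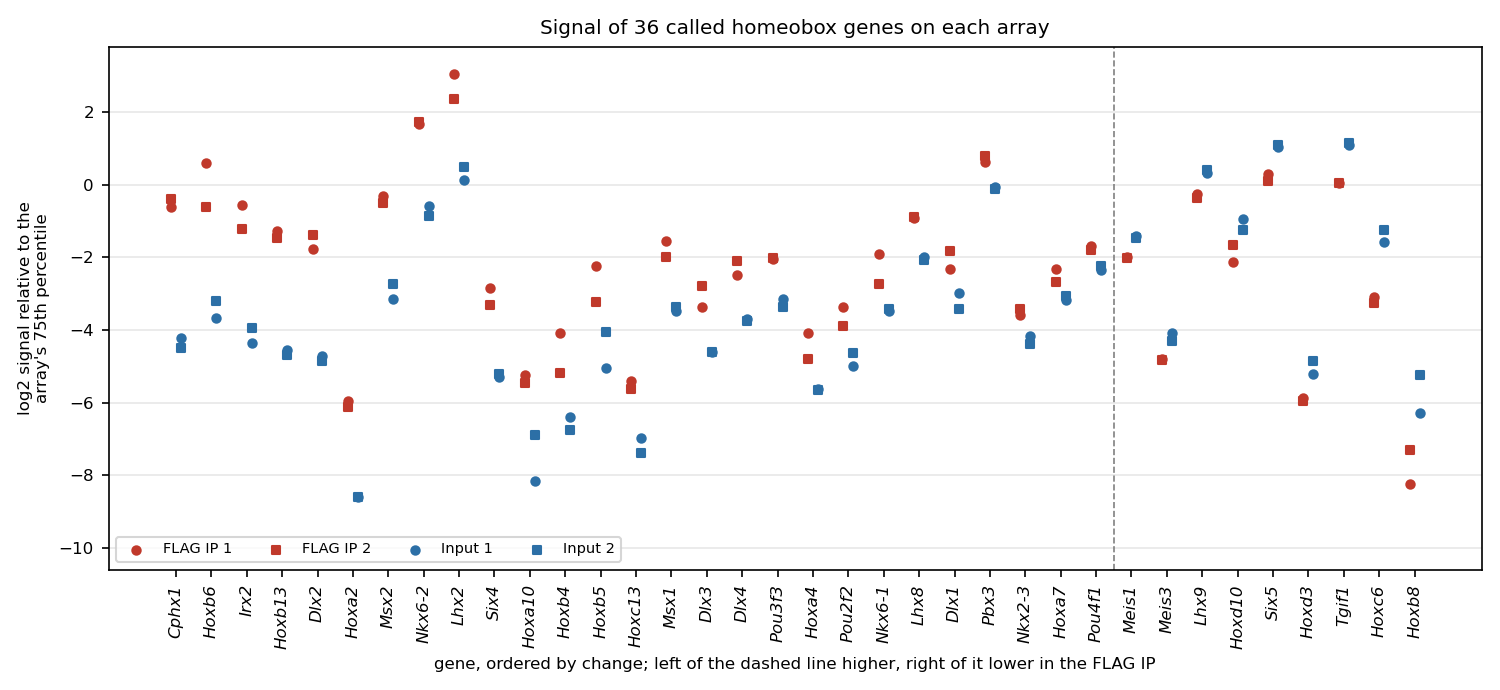
Log2 signal relative to the array's 75th percentile (vertical axis) for 36 homeobox genes with an adjusted p under 0.05, in FLAG IP arrays (red) and Input arrays (blue), with circles for replicate 1 and squares for replicate 2. The 27 genes left of the dashed line lie higher in FLAG IP and the 9 right of it lower, and the Input points of Hoxa2, Hoxa10 and Hoxc13 and the FLAG IP points of Hoxb8 and Hoxd3 were not well above background. With spike-in scaling, Pbx3, Nkx2-3, Hoxa7 and Pou4f1 of the higher genes have negative changes.

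Hoxb6 had the largest change of the Hox genes, with log2 signals of 0.61 and −0.60 in FLAG IP against −3.68 and −3.20 in Input (change 3.44 ± 0.45, SE, adjusted p = 0.0092, 10.9-fold higher). Hoxb13, a posterior Hox gene known from the prostate, had −1.27 and −1.47 in FLAG IP against −4.56 and −4.69 in Input (3.26 ± 0.15, adjusted p = 0.0039). Both genes were detected on every array and changed 9.55-fold or more. Hoxa2 had −5.94 and −6.13 in FLAG IP, and its Input signals of −8.59 and −8.59 were not well above background. Its limma change on the unraised signals was 2.56 ± 0.15 (adjusted p = 0.0039). With Input raised to the lowest signal that passed on each array, Hoxa2 was 1.32-fold higher, a fold that was not tested. Hoxa10, known from the female reproductive tract, had −5.23 and −5.45 in FLAG IP, with Input signals of −8.15 and −6.90 not well above background. Its limma change was 2.18 ± 0.43 (adjusted p = 0.022), and with Input raised in the same way it was 2.14-fold higher. Hoxc13, a gene of hair and nail, had −5.39 and −5.63 in FLAG IP and undetected Input signals of −6.98 and −7.39. Its limma change was 1.68 ± 0.20 (adjusted p = 0.0080), and with Input raised likewise it was 1.90-fold higher. With normexp background correction Hoxa10 and Hoxc13 had log2 changes of 0.72 and 0.63, which are below these folds. The Hoxa10 call was lost without FLAG IP 1, and also with no filter on dim probes (limma, adjusted p = 0.066).

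Hoxa4, known from male germ cells, changed by 1.20 ± 0.27 (adjusted p = 0.028), with −4.09 and −4.80 in FLAG IP against −5.63 and −5.66 in Input. Hoxa7 lay at the threshold, with −2.33 and −2.67 in FLAG IP against −3.18 and −3.07 in Input (0.63 ± 0.18, adjusted p = 0.0498). The Hoxa7 call was lost under 9 of the 13 alternatives tried, and its change was −0.34 with spike-in scaling. Of the 6 Hoxa genes detected on all 4 arrays, 3 were higher and 0 lower, with a median change of 0.49. Over all 8 tested Hoxa genes, which include the undetected Input levels of Hoxa2 and Hoxa10, 5 were higher and 0 lower, and with spike-in scaling 3 were higher and 1 lower.

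The Hoxc and Hoxd clusters held most of the lower Hox genes. Hoxc6 had −3.08 and −3.24 in FLAG IP against −1.59 and −1.25 in Input (−1.74 ± 0.18, adjusted p = 0.0065), 3.34-fold lower. It was the only lower homeobox gene whose call held under all 13 alternatives, whereas its neighbours in paralogue number, Hoxc5 (0.07) and Hoxc4 (0.55), did not pass. All 5 tested Hoxd genes had negative changes, with a median of −0.78 (−0.18 with normexp background correction, where 4 of 5 were negative, and −1.75 with spike-in scaling). Of the 3 Hoxd genes detected on all 4 arrays, 1 was lower. Hoxd10 had −2.12 and −1.67 in FLAG IP against −0.93 and −1.25 in Input (−0.80 ± 0.22, adjusted p = 0.049). This call was lost with quantile normalization, no filter on dim probes, probes averaged and the replicate block. It was also lost when any array except FLAG IP 2 was left out. Hoxd3 was not well above background in FLAG IP (−5.87 and −5.97) and had −5.21 and −4.86 in Input. It was 1.85-fold lower in FLAG IP (adjusted p = 0.023). Hoxb8 was undetected in FLAG IP (−8.25 and −7.31) and had −6.28 and −5.23 in Input. Its limma change on the unraised signals was −2.02 ± 0.48 (adjusted p = 0.033). With FLAG IP raised to the lowest signal that passed on each array, Hoxb8 was 1.48-fold lower there. With normexp the change was −0.02 for Hoxd3 (adjusted p = 0.91) and −0.08 for Hoxb8 (adjusted p = 0.72). Both calls and both folds thus depend on how dim signals are treated.

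**Figure D2:**
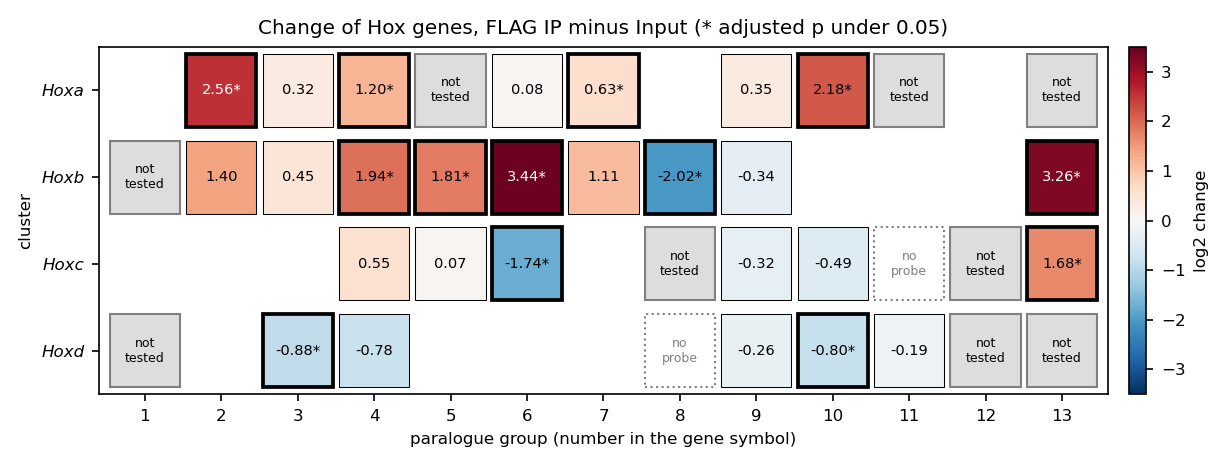
Change in log2 signal, FLAG IP minus Input, of Hox genes by cluster (rows) and paralogue group (columns), with an asterisk and a thick frame at an adjusted p under 0.05. Red squares are higher in FLAG IP and blue squares lower, grey squares were not tested, and dotted squares mark genes with no probe. Among the genes drawn, Hoxa holds 4 higher and 0 lower and Hoxd 0 higher and 2 lower (with spike-in scaling the whole Hoxa cluster has 3 and 1 and Hoxd 0 and 5), and the changes of Hoxa2, Hoxa10, Hoxc13, Hoxb8 and Hoxd3 rest on a group that was not well above background.

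The Hoxb cluster was mixed, with 4 of 9 tested genes higher and 1 lower (3 and 0 of the 7 detected on all 4 arrays). Along the chromosome, in RefSeq gene order (GRCm38.p6), the lower Hoxb8 lies between Hoxb9 (−0.34, adjusted p = 0.54) and Hoxb7 (1.11, adjusted p = 0.089), and the higher Hoxb6 follows. Hoxb5 had −2.23 and −3.23 in FLAG IP against −5.03 and −4.04 in Input (1.81 ± 0.48, adjusted p = 0.042). Hoxb4, a gene of blood stem cells, had −4.09 and −5.17 in FLAG IP against −6.38 and −6.76 in Input (1.94 ± 0.40, adjusted p = 0.023). Hoxb2 had −0.47 and −1.59 in FLAG IP against −2.71 and −2.13 in Input and did not pass (1.40 ± 0.43, adjusted p = 0.062). Replicates lay far apart in this cluster: the median difference between the FLAG IP arrays was 0.94 over the 9 tested Hoxb genes and 0.24 over all tested features, and between the Input arrays 0.58 and 0.15. FLAG IP 1 exceeded FLAG IP 2 by 0.79 to 1.21 for Hoxb2, Hoxb4, Hoxb5, Hoxb6, Hoxb7 and Hoxb9. The difference was −0.94 for Hoxb8, whose FLAG IP signals were not well above background. For Hoxb3 and Hoxb13 the arrays of a group differed by at most 0.19. What separates the arrays at these genes was not tested.

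**Figure D3:**
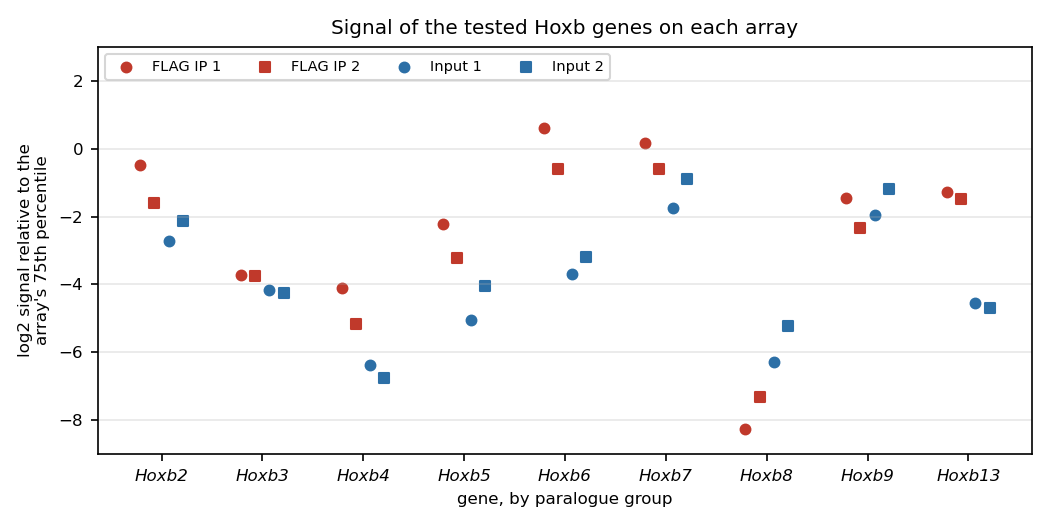
Log2 signal relative to the array's 75th percentile (vertical axis) of the 9 tested Hoxb genes in the 2 FLAG IP arrays (red) and the 2 Input arrays (blue), with circles for replicate 1 and squares for replicate 2. Hoxb2, Hoxb4, Hoxb5, Hoxb6, Hoxb7 and Hoxb9 are 0.79 to 1.21 higher in FLAG IP 1 than in FLAG IP 2, Hoxb8 is lower by 0.94, and the replicates of Hoxb3 and Hoxb13 lie close together. The FLAG IP points of Hoxb8 were not well above background.

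Of the 9 tested TALE genes of the Pbx, Meis and Tgif families, 1 was higher and 4 were lower (0 and 8 with spike-in scaling), beside 15.8% higher and 21.2% lower of all tested features. No test set these families against the others. Tgif1, a repressor of TGF-beta and SMAD signalling, had 0.06 and 0.06 in FLAG IP against 1.10 and 1.16 in Input (−1.07 ± 0.13, adjusted p = 0.0084, 2.10-fold lower). Meis1 had −1.98 and −2.01 in FLAG IP against −1.40 and −1.45 in Input (−0.57 ± 0.13, adjusted p = 0.032). Both genes were lower on each FLAG IP array. Meis3 changed by −0.60 ± 0.15 (adjusted p = 0.036), and with normexp by −0.15 (adjusted p = 0.41). The Meis3 call was also lost with quantile normalization, trend and robust moderation, no filter on dim probes and any array left out. Pbx3 was higher, with 0.63 and 0.79 in FLAG IP against −0.06 and −0.11 in Input (0.79 ± 0.14, adjusted p = 0.018), and its change was −0.18 with spike-in scaling. Tgif2 (−0.23, adjusted p = 0.36) and Pbx2 (0.08, adjusted p = 0.80) did not pass. All calls among Pbx and Meis genes were lost under the replicate block and without Input 1 or Input 2. Of the 4 related TALE genes outside the families, Pknox2 was lower (−0.57 ± 0.14, adjusted p = 0.035), and Pknox1 (0.26), Mkx (0.01) and Pbxip1 (−0.30) did not pass.

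Irx2, a TALE gene of the Iroquois family, was higher, with −0.54 and −1.22 in FLAG IP against −4.35 and −3.94 in Input (3.26 ± 0.29, adjusted p = 0.0051). All 3 of its probes were higher in FLAG IP, with changes of 3.26, 3.43 and 4.29. The Input signals of the probe with 4.29 (−8.12 and −7.26) were not well above background. Irx4 (0.34) and Irx6 (0.52) were tested and did not pass.

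Of the 3 tested sine oculis genes, 2 were higher in FLAG IP and 1 lower. Six4, a gene of gonadal precursor cells, had −2.84 and −3.30 in FLAG IP against −5.30 and −5.22 in Input (2.19 ± 0.20, adjusted p = 0.0054, 4.57-fold higher). Six5 went the other way, with 0.29 and 0.10 in FLAG IP against 1.05 and 1.10 in Input (−0.88 ± 0.15, adjusted p = 0.015). Of the cofactors and network genes of these factors, 5 of 7 were tested and 0 passed limma's test, also 0 at an unadjusted p under 0.05, and Eya1, Eya2 and Eya3 had changes of 0.11, 0.29 and 0.14.

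Among LIM genes, Lhx2, a gene of forebrain and eye, had the largest change (2.38 ± 0.28, adjusted p = 0.0078, 5.22-fold higher). It had 3.04 and 2.37 in FLAG IP against 0.14 and 0.50 in Input. Lhx8, known from oocytes, had −0.90 and −0.90 in FLAG IP against −1.98 and −2.07 in Input (1.12 ± 0.14, adjusted p = 0.0080). Lhx9, which the gonad needs to form, was lower, with −0.26 and −0.37 in FLAG IP against 0.32 and 0.40 in Input (−0.67 ± 0.14, adjusted p = 0.024). Both of its probes had negative changes (−0.67 and −1.19), and Lhx4 and Lhx5 did not pass. The left-out relative Lhx1 changed by 4.14 ± 0.34 (adjusted p = 0.0047). Of 10 LIM cofactors, Lmo2 (0.91) and Rlim (0.58) were higher and Ldb2 (−1.03) and Ssbp4 (−0.50) lower.

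All 5 tested POU genes had positive changes and 3 passed the test, whereas with spike-in scaling 2 were positive and 0 passed. Pou3f3, a gene of brain and kidney, had −2.05 and −2.00 in FLAG IP against −3.15 and −3.36 in Input (1.23 ± 0.15, adjusted p = 0.0082). Pou2f2, known from B cells, changed by 1.18 ± 0.25 (adjusted p = 0.025) and Pou4f1, of sensory neurons, by 0.57 ± 0.14 (adjusted p = 0.036). A second Pou4f1 probe gave 2.88. Pou2f1, a widely expressed gene, had 2.35 and 1.91 in FLAG IP against 1.61 and 2.18 in Input, which overlap (0.24, adjusted p = 0.51). Pou3f1, left out above, changed by 1.11 ± 0.15 (adjusted p = 0.0098), and Pou5f1 by −0.61 ± 0.21 (adjusted p = 0.081).

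The NK-like class had 9 of 15 tested genes higher and 0 lower, beside 15.8% higher and 21.2% lower of all tested features. With spike-in scaling the class had 3 higher and 3 lower, where 627 and 14136 of all 21594 features were. Dlx2, a gene of forebrain and jaw, led it with −1.76 and −1.37 in FLAG IP against −4.70 and −4.86 in Input (3.22 ± 0.19, adjusted p = 0.0039, 9.29-fold higher). Its neighbour Dlx1 had −2.33 and −1.82 in FLAG IP against −2.97 and −3.41 in Input (1.11 ± 0.26, adjusted p = 0.031). The other neighbouring Dlx genes also rose together, Dlx3 by 1.52 ± 0.23 (adjusted p = 0.012) and Dlx4 by 1.44 ± 0.18 (adjusted p = 0.0085). These 4 changes stayed positive with spike-in scaling, where Dlx2 alone passed. The non-coding Dlx6os2 did not pass (0.34, adjusted p = 0.16).

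Msx1 and Msx2, targets of BMP signalling in craniofacial tissue, were both higher. Msx2 had −0.30 and −0.50 in FLAG IP against −3.14 and −2.74 in Input (2.53 ± 0.20, adjusted p = 0.0045, 5.79-fold higher). Msx1 had −1.55 and −1.98 in FLAG IP against −3.49 and −3.37 in Input (1.66 ± 0.20, adjusted p = 0.0078). Its second probe gave 2.67, with Input signals (−8.41 and −8.44) that were not well above background. Of the Nkx genes, 3 of 8 tested were higher. Nkx6-2, a gene of the neural tube, had 1.69 and 1.74 in FLAG IP against −0.59 and −0.84 in Input (2.43 ± 0.16, adjusted p = 0.0040). Nkx6-1, known from motor neurons and pancreatic beta cells, changed by 1.13 ± 0.30 (adjusted p = 0.043) and Nkx2-3 by 0.79 ± 0.16 (adjusted p = 0.022). Nkx2-3 had a change of −0.18 with spike-in scaling. The heart gene Nkx2-5 (−0.31, adjusted p = 0.13) did not pass, nor did Pitx1 (0.20) and Pitx3 (0.15).

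**Figure D4:**
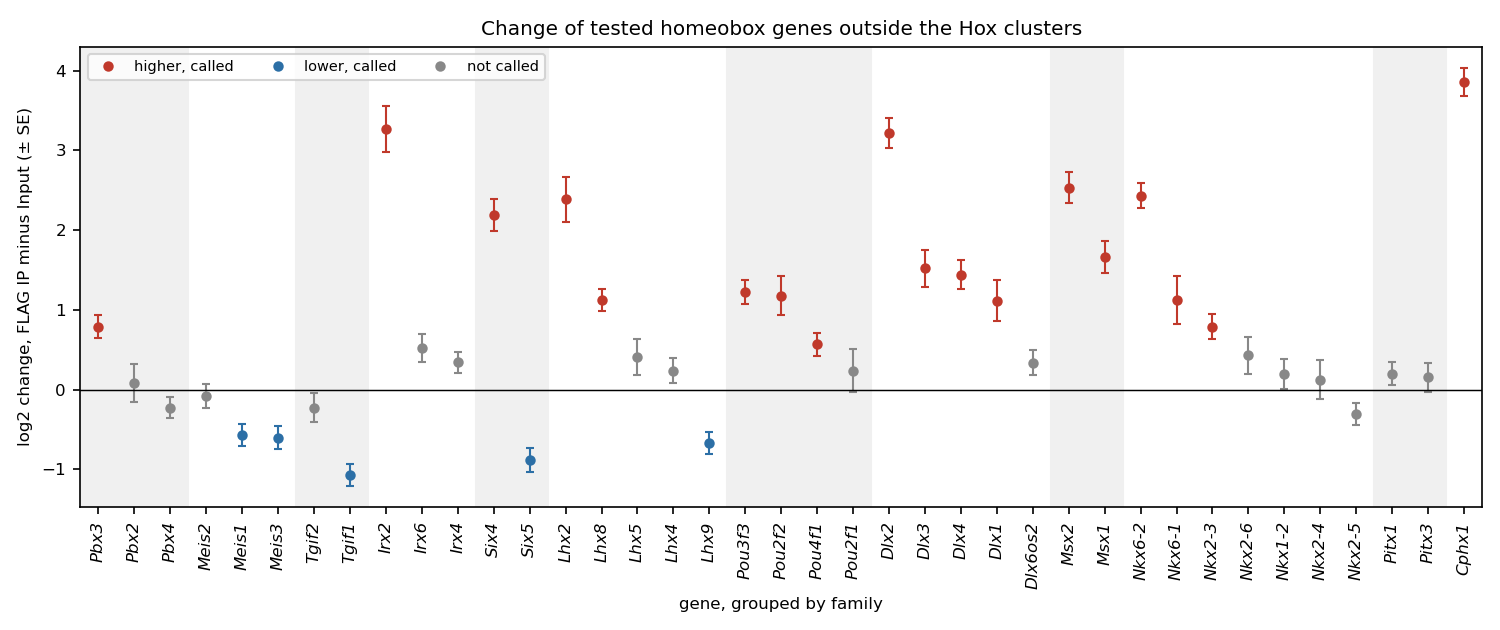
Change in log2 signal, FLAG IP minus Input, with its SE, of 39 tested homeobox genes outside the Hox clusters, grouped by family. Called genes are red (18 higher) or blue (5 lower) and the 16 others grey; Meis and Tgif hold 3 of the 5 lower genes drawn, and with spike-in scaling the higher Pbx3, Nkx2-3 and Pou4f1 have negative changes.

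Cphx1, a homeobox gene of the oocyte and early embryo, had the largest change of all members, with −0.61 and −0.38 in FLAG IP against −4.22 and −4.49 in Input (3.86 ± 0.18, adjusted p = 0.0039, 14.5-fold higher). It has near-identical copies, Cphx2 and Cphx3, that had no matched probe, so which copy gave the signal is uncertain. The Obox genes also have close copies and were not tested. Obox7 was well above background on FLAG IP 2 alone (−2.06), with −8.52 on FLAG IP 1 and −8.60 and −8.66 in Input.

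Of the 21 members with several probes, 13 had more than 1 tested probe, and 0 were called in opposite directions. Hoxa3 differed by probe: the brighter probe gave 0.32 (adjusted p = 0.31) and the other 1.87 ± 0.36 (adjusted p = 0.020). The Input signals of that other probe (−7.34 and −6.68) were not well above background. When each array was left out in turn, 14 higher genes and 1 lower gene kept their call every time. The higher ones included Cphx1, Hoxb6, Hoxb13, Hoxa2, Hoxc13, Irx2, Dlx2, Msx1, Msx2, Nkx6-2, Lhx2 and Six4, and the lower one was Hoxc6. Of these, Hoxc13 and Msx1 missed with spike-in scaling (adjusted p = 0.097 and 0.10). The others kept their call under each of the 13 alternatives that tested them. Hoxa2 and Hoxc13 were not tested in the alternative that asked for signal well above background on all arrays.

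Of the homeobox genes outside these families, 18 of 66 tested were higher and 8 lower, with a median change of 0.15, beside 15.8% higher and 21.2% lower and a median of −0.15 over all tested features. The difference from the members was not tested. Hhex, a gene of liver and blood vessel formation, had 3.26 and 3.40 in FLAG IP against 0.37 and 0.26 in Input. Among genes of trithorax and of Polycomb PRC1, which maintain Hox expression states, 9 of 26 tested were higher and 1 lower. The same shares of all features apply, and the median was 0.23. The 9 higher genes and the lower Phc2 were all Polycomb genes, and trithorax genes such as Kmt2b, Men1 and Wdr5 were not called. Polycomb and trithorax genes were not tested against each other. Cbx7 (1.56 ± 0.23, adjusted p = 0.012) and Yaf2 (1.41 ± 0.15, adjusted p = 0.0067), both of Polycomb repressive complexes, had the largest changes.

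Markers of some somatic testis cells were lower, where 21.2% of all tested features were lower. Of the tested markers, 3 of 6 Leydig, 3 of 6 peritubular myoid, 2 of 6 Sertoli, 4 of 4 macrophage and 0 of 6 endothelial genes were lower in FLAG IP, and 0 of 6 germ cell genes were called either way by limma (2 at an unadjusted p under 0.05). The summed linear level of the Sertoli list was 81.4 and 77.8 in FLAG IP against 111 and 109 in Input, and of the myoid list 71.2 and 73.1 against 119 and 108. The germ cell list had 94.8 and 133 in FLAG IP against 102 and 97.5 in Input, and Flt1 of the 6 endothelial genes was higher (1.29). The endothelial list summed to 3.07 and 2.20 in FLAG IP against 2.15 and 3.03 in Input. For Leydig genes the sums were 13.3 and 17.1 in FLAG IP against 37.3 and 28.2 in Input, and for macrophage genes 1.11 and 1.24 against 2.67 and 2.74. No marker was undetected on all 4 arrays. The part of these cell types in the changes of the homeobox genes was not tested. Input is the starting material of an immunoprecipitate, so these marker values compare recovered RNA and do not measure cell numbers.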

How the data were processed

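Per the submitters' processing notes and the file headers, the authors scanned the arrays with Agilent Feature Extraction 9.5 and deposited each spot's processed signal intensity with its flags. The authors' deposited value table holds log2 values, which lay within 0.01 of the log2 processed signal less a constant per array for at least 99.6% of probes. Control spots and outlier flags were left out, spots of a probe were averaged, and the 75th percentile of each array was subtracted. Probes were named through RefSeq accessions (22944 of 41174, 55.7%), and the brightest probe stood for a gene. A feature was tested if it was well above background, on at least a 0.5 share of its spots, on both arrays of 1 group. FLAG IP was compared with Input with moderated linear models (limma 3.58.1, R 4.3.3), and p-values were adjusted by Benjamini-Hochberg over 21594 features with a threshold of 0.05. The number of arrays, 2 per group, limits the precision.

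For a group not well above background, the fold sets the bright group's mean against a raised dim group. Each dim array is taken at the higher of its own value and its lowest signal of any probe well above background. Such a fold is not a strict lower bound, because dim probes such as that of Hoxd3 in FLAG IP can lie above that signal. The adjusted p of such a gene belongs to its limma change on the unraised signals. The members and gene lists were chosen with earlier results of these data known. Named genes were the 30 called members with the largest change and the 8 brightest not called, and others were named after their values were seen. Arrays with the same replicate number deviated from their group means with a correlation of −0.37, so the numbers were not taken as pairs. The alternatives were quantile normalization, spike-in scaling, normexp (offset 50, on the median signal because no mean signal column was present), the authors' table, other filters, probe averaging, trend and robust moderation, the replicate block and each array left out. The fit was tested on simulated data. Some results are not reported here, and their genes stay in the counts and medians but are not drawn.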

Additional observations from a re-analysis of the deposited data

How the results depend on the processing

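Of the 29 higher and 10 lower homeobox genes, 12 and 1 kept their call under each of the 13 alternatives that tested them. Hoxa2, among the 12, was not tested in the alternative that asked for signal well above background on all arrays. Scaling on the spike-ins moved all features down together and gave 15 higher and 25 lower members and a median change of −0.54. Of the called members, it turned the sign of Pbx3 (−0.18), Nkx2-3 (−0.18), Hoxa7 (−0.34) and Pou4f1 (−0.41). Uncalled members with small positive changes turned as well, among them Pbx2 (−0.89) and Pou2f1 (−0.73). The number of lower members was 5 with no filter on dim probes, which adds 35 dim genes, and 4 with the replicate block. The block also left 23 higher members, and over all features gave 2268 higher and 2282 lower. With each array left out in turn, higher calls numbered 15 to 32 and lower calls 1 to 10, with fewer samples in each fit. Over all features, leaving out Input 1 gave 978 higher and 710 lower, and leaving out Input 2 gave 1017 and 558. A block with crossed replicate numbers, chosen after seeing the data, gave 33 higher and 11 lower members. With normexp, which treats dim signals differently, the calls of Hoxb8, Hoxd3 and Meis3 were among those lost, and the cause of the other differences was not tested.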
